A study of Mus musculus with 9 samples.

Results

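Mitotic kinases, kinesins and spindle checkpoint genes were examined in cultured fibroblasts of mouse embryos (MEFs) as a set of 35 genes named by symbol. All 35 were on the array, among 20672 genes in all, and each was represented by the brightest of its probe sets, the one with the highest mean over the 9 arrays. The genes were listed by name, with earlier results of these data known. Within the list, measured values entered in the choice of probe set. Controls carried a hairpin RNA for GFP, a protein foreign to the mouse (shGFP, n = 3). Knockdown cells carried a hairpin against the forkhead transcription factor Foxk1 (shFoxk1, n = 3), and rescue cells carried that hairpin together with Foxk1 added back (rescue, n = 3). All groups were MEFs grown in DMEM, and each of the 9 samples was hybridised to 1 array. The age of the embryos, the promoter behind the added Foxk1, and whether the cells were pools or clones are not stated in the labels.

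Cells enter mitosis when CDK1, bound to a B-type cyclin and freed of its inhibitory phosphates by CDC25 phosphatases, becomes active. Aurora and Polo kinases then build the spindle, kinesins move and shorten its microtubules, and the kinetochore ties each chromosome to it. The spindle checkpoint holds back the anaphase-promoting complex until every kinetochore is attached, after which CDC20 lets the complex destroy cyclin B and securin. Transcripts of these genes rise together in G2 and mitosis. In bulk RNA, a smaller share of cells in these phases and less RNA per cell cannot be told apart, and the normalization of the arrays removes differences in total RNA.

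Much of this shared timing is known to run through promoter elements near the start of the gene. NF-Y binds CCAAT boxes, and the MuvB complex binds the cell cycle homology region (CHR) with B-MYB and FOXM1 or, in resting cells, as part of the repressor complex DREAM. RefSeq promoters of assembly GRCm38.p6, which reach from 250 bases before to 50 bases after the start, were at hand for 29 of the 35 genes. They were searched on both strands for the CCAAT box, the letters CCAAT or their complement. The letters searched for the CHR were TTTGAA and its complement. The palindrome TTTAAA was counted with the CHR as well, and matches that overlap were each counted. CCAAT stood in 23 of the 29, or 79.3%, against 37.9% of the first promoters of 27018 genes of the table. CHR letters stood in 24 of the 29, or 82.8%, against 27.8% of all. Within 50 bases of the start, CHR letters stood in 21 of the 29, or 72.4%, against 8.25% of all. Both elements together were in 72.4% of the mitotic promoters and in 10.9% of all. These are matches of letters and say nothing of binding in these cells.

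The 4 promoters below belong to the mitotic genes with the smallest unadjusted p in any comparison, among those in the table. They hold different arrangements of the elements, although the genes share their timing. Each is written 5′ to 3′ on the strand of its gene, all on the minus strand, with CCAAT boxes and CHR letters in capitals. Kif2c is at chr4:117178723-117179022, Aurka at chr2:172370521-172370820, Bub1 at chr2:127831810-127832109 and Cdk1 at chr10:69352863-69353162.
Kif2c: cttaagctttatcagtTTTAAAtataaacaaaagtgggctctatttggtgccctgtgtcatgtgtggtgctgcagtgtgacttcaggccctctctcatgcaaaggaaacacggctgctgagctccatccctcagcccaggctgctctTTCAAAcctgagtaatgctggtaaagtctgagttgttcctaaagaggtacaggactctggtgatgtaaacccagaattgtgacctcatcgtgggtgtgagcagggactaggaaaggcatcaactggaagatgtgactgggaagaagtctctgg
Aurka: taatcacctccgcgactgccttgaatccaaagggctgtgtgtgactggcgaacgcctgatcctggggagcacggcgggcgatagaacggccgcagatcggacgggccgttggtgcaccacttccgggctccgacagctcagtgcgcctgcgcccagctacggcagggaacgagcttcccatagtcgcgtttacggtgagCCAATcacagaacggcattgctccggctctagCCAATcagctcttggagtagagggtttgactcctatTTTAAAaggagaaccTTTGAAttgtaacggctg
Bub1: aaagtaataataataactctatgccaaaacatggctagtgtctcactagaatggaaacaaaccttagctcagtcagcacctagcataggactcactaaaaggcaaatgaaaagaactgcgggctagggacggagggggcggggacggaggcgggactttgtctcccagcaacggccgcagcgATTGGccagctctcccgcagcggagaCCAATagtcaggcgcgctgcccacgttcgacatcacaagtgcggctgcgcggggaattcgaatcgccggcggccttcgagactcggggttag
Cdk1: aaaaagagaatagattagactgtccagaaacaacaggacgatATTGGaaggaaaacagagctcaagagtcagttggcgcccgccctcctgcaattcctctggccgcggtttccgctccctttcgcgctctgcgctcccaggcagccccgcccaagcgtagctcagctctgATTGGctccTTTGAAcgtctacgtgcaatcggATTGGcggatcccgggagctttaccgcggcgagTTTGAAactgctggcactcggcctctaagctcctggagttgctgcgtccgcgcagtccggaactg
With the first base of the gene counted as 1, Cdk1 has CCAAT boxes, all in the complement, beginning at -208, -80 and -48 and CHR letters at -71 and -15. In Aurka both CCAAT boxes lie before the start, at -51 and -19, and both CHR letters lie after it, at 18 and 33. Bub1 holds CCAAT boxes at -68 and -42 and no CHR letters in this window. Kif2c holds CHR letters far from the start, at -234 and -103, and no CCAAT box.

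Foxk1 was examined first to check the labels. It stood at 8.98, 8.89 and 8.95 on the shGFP arrays and at 7.75, 7.96 and 7.74 on the shFoxk1 arrays, on a log2 scale, and fell by 1.12 in limma, a linear model with moderated variances (SE 0.08, adjusted p = 5.18e-05). Averaged over its probe sets, the change was -0.49. In rescue it stood at 8.04, 7.77 and 7.76, a difference from shFoxk1 of 0.04 (adjusted p = 0.869), and the probe set does not show whether it can read the added Foxk1. Foxk2, its close relative, stood at 10.81 to 10.84 in shGFP, 10.68 to 10.88 in shFoxk1 and 10.74 to 10.80 in rescue. Of 12 fibroblast markers, 11 reached the median level over genes, against 4 of 7 neural, 2 of 7 epithelial, 2 of 6 skeletal muscle, 0 of 7 endothelial and 2 of 10 macrophage and blood markers. The summed linear level of the fibroblast list was 101080 to 103279 in shGFP, 103690 to 104171 in shFoxk1 and 108463 to 110521 in rescue. In shFoxk1 against shGFP, 1 of its 12 genes rose (Fn1, fibronectin, 0.54) and 1 fell (Dcn, decorin, -0.28), where 1.97% of all genes rose and 2.26% fell. In rescue against shGFP 3 rose, up to 0.65 for Fn1, where 2.5% of all genes rose. In rescue against shFoxk1 1 rose and 0 fell, where 0.653% of all genes rose and 0.3% fell. The largest change of the list there was 0.67, and 11 of its 12 means were higher, against 55.3% of all genes. The summed linear level of the macrophage and blood list was 1844 to 1958 in shGFP, 1490 to 1551 in shFoxk1 and 1554 to 1635 in rescue. Of its 10 genes 2 fell in shFoxk1, Csf1r (-0.38) and Cd14 (-0.35), against 2.26% of all genes, 8 did not pass and 3 means were higher. Ptprc, the pan-leukocyte gene, was at means of 4.19 and 4.09 in shGFP and shFoxk1, below the median level over genes. The part of other cell types in the results below was not tested. Other whole-series values were even, with array medians over genes of 6.53 to 6.62 and the narrowest interquartile range on rescue replicate 2 (4.29, against 4.37 to 4.45 on the others).

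The comparison of shFoxk1 with shGFP asks whether mitotic transcripts changed when Foxk1 was knocked down. None of the 35 genes passed an adjusted p under 0.05 in limma, where 4.24% of all genes did. Their changes lay between -0.16 for Aurka and 0.18 for Kif20a, with 24 means higher in shFoxk1 (51.2% of all genes) and 11 lower, and a median of 0.057, against 0.0031 for all genes and 0.033 for the 35 when every array was centred on its median. The 95% intervals of the 35 changes reached from -0.27 to 0.31, each for the brightest probe set and taken singly. A change of more than 1.24-fold lay outside each of these intervals. A dimmer Cenpf probe set, given below, differed by more, without a call in this comparison. At an unadjusted p under 0.05 there were 8 genes higher and 2 lower, where 8.46% and 8.34% of all genes were. The 10 together compare with 16.8% of all genes and 25.2% of the genes at or above the median level. The arrays of the groups did not overlap for 15 of the 35, 11 higher and 4 lower in shFoxk1. That held for 22% of all genes, 11.6% higher and 10.4% lower, and for 33.8% of those at or above the median level, among which 34 of the 35 are found.

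Some choices of the test brought a few mitotic genes past the threshold in this comparison. With only the genes at or above the median level tested, 5 were called (14.5% of the genes tested), which were Kif2c, Kif20a, Bub1 and Cdk1 higher and Aurka lower. With a variance trend and robust estimates 7 were called (7.4% of all genes), the same 5 with Cdc20 higher and Ube2c lower. With array weights 5 were called (7.45% of all genes), Kif2c, Kif20a and Bub1 higher and Aurka and Ube2c lower. In the authors' deposited table for this comparison 0 of the 35 probe sets are under an adjusted p of 0.05, the smallest being 0.108.

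**Figure D1:**
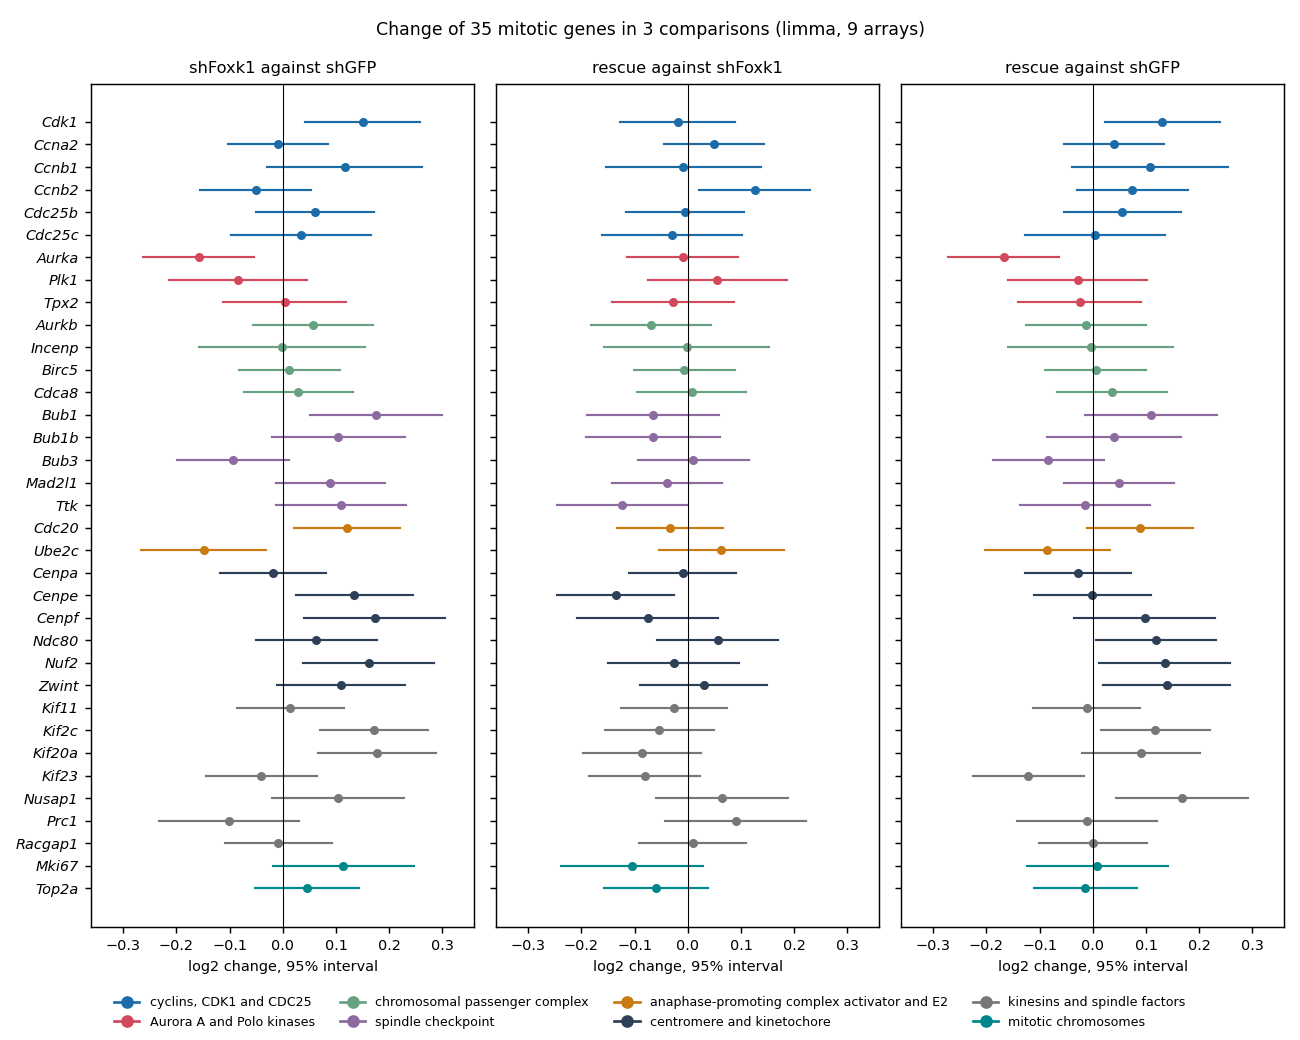
Change of the 35 genes in each of 3 comparisons on the log2 scale, with 95% intervals from limma over 9 arrays and colours for the gene's role. The changes of shFoxk1 against shGFP run from -0.16 (Aurka) to 0.18 (Kif20a), and no gene passed an adjusted p under 0.05 in any panel.

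Among the cyclins, CDK1 and the CDC25 phosphatases, Cdk1 differed the most between shFoxk1 and shGFP. Cdk1, the kinase that drives entry into mitosis, stood at 12.78, 12.87 and 12.82 in shGFP, 12.96, 13.03 and 12.94 in shFoxk1, and 12.91, 12.97 and 12.99 in rescue. All arrays with the Foxk1 hairpin lay above all shGFP arrays, and the difference was 0.15 (SE 0.05, adjusted p = 0.134) for shFoxk1 and 0.13 (SE 0.05, adjusted p = 0.187) for rescue. Of the cyclins that bind it, 2 had means below the controls in shFoxk1 and 1 above. Cyclin A2 (Ccna2) differed by -0.0087 and cyclin B2 (Ccnb2) by -0.051 in shFoxk1 against shGFP. Cyclin B1 (Ccnb1) differed by 0.12, on a dim probe set at 6.25 to 6.56 over the 9 arrays, the one gene of the 35 below the median gene level. Cdc25b and Cdc25c, which remove the inhibitory phosphates of CDK1, differed by 0.061 and 0.035.

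Ccnb2, which binds CDK1 as cyclin B1 does, had the most positive change of the 35 in rescue against shFoxk1. It stood at 11.60, 11.69 and 11.61 in shGFP, at 11.58, 11.62 and 11.54 in shFoxk1, and at 11.67, 11.72 and 11.73 in rescue. The rescue arrays all lay above the shFoxk1 arrays, by 0.13 (SE 0.05, adjusted p = 0.281), but overlapped those of shGFP.

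Aurka lay lower where the Foxk1 hairpin was present. Aurka, the kinase of centrosomes and spindle poles, stood at 11.29, 11.27 and 11.24 in shGFP, 11.06, 11.12 and 11.14 in shFoxk1, and 11.04, 11.11 and 11.14 in rescue. Every array with the Foxk1 hairpin lay below every control array. The difference from shGFP was -0.16 in shFoxk1 (SE 0.05, adjusted p = 0.0999) and -0.17 in rescue (SE 0.05, adjusted p = 0.0752), 1.12-fold in either case. With each array centred on its median the latter was -0.21 and was called (adjusted p = 0.0302, 5.25% of all genes called). A dimmer Aurka probe set, with a mean of 5.69, differed by 0.16 in shFoxk1. Plk1, the Polo kinase, differed by -0.084, with 1 shFoxk1 array at 10.56 among the shGFP values of 10.48 to 10.58. Tpx2, which activates Aurora A on microtubules, differed by 0.0036.

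The chromosomal passenger complex corrects faulty attachments and then moves to the midzone, and its 4 genes differed little. Aurkb, the kinase, Incenp, the scaffold, Birc5 (survivin) and Cdca8 (borealin) differed between shFoxk1 and shGFP by 0.057, -0.0018, 0.012 and 0.029. The widest of their intervals in this comparison ran from -0.16 to 0.15 for Incenp. Birc5 was at 12.52 to 12.60 on all 9 arrays. In rescue against shFoxk1 the 4 genes lay between -0.069 and 0.007.

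Of the spindle checkpoint genes, Bub1 lay higher in shFoxk1 and Bub3 lower. Bub1, a checkpoint kinase of the kinetochore, stood at 11.48, 11.43 and 11.47 in shGFP, 11.73, 11.55 and 11.62 in shFoxk1, and 11.62, 11.53 and 11.54 in rescue. No array with the Foxk1 hairpin overlapped a control array, and the difference was 0.18 in shFoxk1 (SE 0.06, adjusted p = 0.123) and 0.11 in rescue (SE 0.06, adjusted p = 0.348). A dimmer Bub1 probe set, with a mean of 6.05, differed from shGFP by -0.13 in shFoxk1 and 0.028 in rescue. Bub3, which carries BUB1 and BubR1 to the kinetochore, differed by -0.094 in shFoxk1 and -0.084 in rescue against shGFP, with no overlap of arrays. Bub1b (BubR1) and Mad2l1 (MAD2), both part of the inhibitor of CDC20, differed by 0.10 and 0.089 in shFoxk1.

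Ttk, the MPS1 kinase that starts checkpoint signalling, was among the genes that differed most between rescue and shFoxk1. Its levels were 10.14, 10.17 and 10.08 in shGFP, 10.27, 10.17 and 10.28 in shFoxk1, and 10.17, 10.04 and 10.14 in rescue. The rescue mean was 0.12 below that of shFoxk1 (SE 0.06, adjusted p = 0.355), with 1 rescue array and 1 shFoxk1 array both at 10.17, and -0.014 from that of shGFP.

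The partners of the anaphase-promoting complex differed in opposite directions. Ube2c, the E2 enzyme that starts its ubiquitin chains, stood at 13.56, 13.59 and 13.55 in shGFP, 13.35, 13.51 and 13.39 in shFoxk1, and 13.45, 13.54 and 13.45 in rescue. Each array with the Foxk1 hairpin was below each control array, more so in shFoxk1 (change -0.15, SE 0.05, adjusted p = 0.174) than in rescue (change -0.086, adjusted p = 0.451). Cdc20, the activator that the checkpoint restrains, stood at 12.93, 12.97 and 12.90 in shGFP and at 13.05, 13.09 and 13.03 in shFoxk1. All 3 arrays lay above the controls, and the change was 0.12 (SE 0.04, adjusted p = 0.191). Its other 2 probe sets differed by 0.15 and 0.097.

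**Figure D2:**
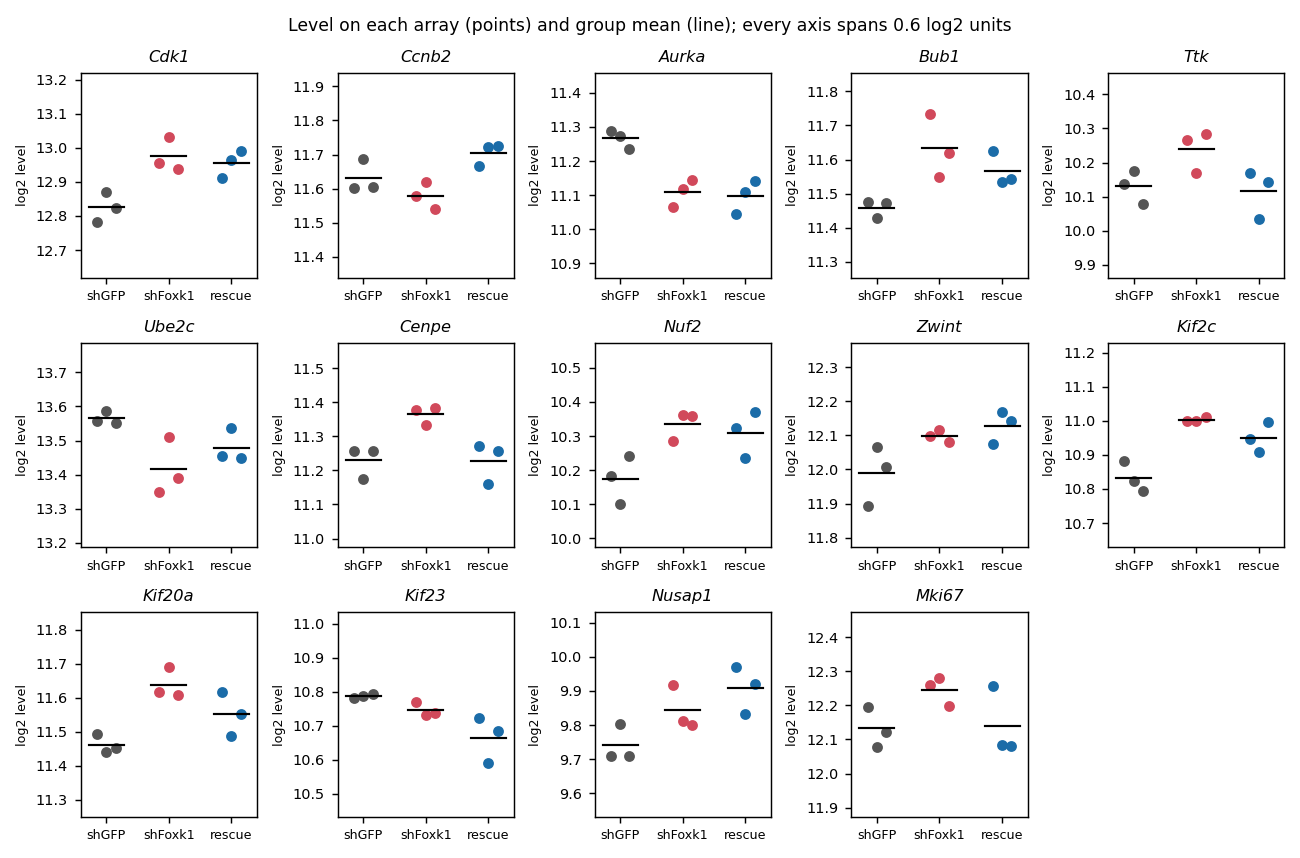
Log2 level of 14 of the mitotic genes on each array, points for arrays and lines for group means, with the same span of 0.6 log2 units on every axis. The chosen genes have the smallest p of the 35 in a comparison or the most negative change in shFoxk1. Aurka lies lower and Cdk1 higher on all 6 arrays with the Foxk1 hairpin than on the 3 controls.

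Kinetochore genes lay mostly higher in shFoxk1 than in shGFP, 5 of 6 by their means against 51.2% of all genes, with a median of 0.12 and 0 called against 4.24% of all genes. Nuf2, which forms the microtubule grip of the kinetochore with NDC80, stood at 10.18, 10.10 and 10.24 in shGFP, 10.29, 10.36 and 10.36 in shFoxk1, and 10.32, 10.23 and 10.37 in rescue. The shFoxk1 arrays were all higher than the controls, by 0.16 (SE 0.06, adjusted p = 0.157), while 1 rescue array overlapped them. Its partner Ndc80 differed by 0.063 in shFoxk1 and 0.12 in rescue (adjusted p = 0.252) against shGFP.

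Cenpe, the kinesin that carries chromosomes to the spindle equator, gave the most negative change of the 35 in rescue against shFoxk1. It stood at 11.26, 11.18 and 11.26 in shGFP, 11.38, 11.33 and 11.38 in shFoxk1, and 11.27, 11.16 and 11.26 in rescue. The shFoxk1 arrays lay above those of both other groups. The differences were 0.13 (SE 0.05, adjusted p = 0.187) for shFoxk1 against shGFP, -0.14 (SE 0.05, adjusted p = 0.269) for rescue against shFoxk1 and -0.0011 for rescue against shGFP. The first and second of these share the shFoxk1 arrays, so their opposite signs are not independent of each other.

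Zwint, which ties the ZW10 complex to the kinetochore, stood at 11.89, 12.07 and 12.01 in shGFP, 12.10, 12.12 and 12.08 in shFoxk1, and 12.07, 12.17 and 12.14 in rescue. Arrays with the Foxk1 hairpin were all above the controls, with changes of 0.11 (adjusted p = 0.352) and 0.14 (adjusted p = 0.207), though a control and a rescue array both read 12.07. Cenpa, the histone that marks the centromere, differed by -0.019 in shFoxk1.

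Cenpf, a large kinetochore protein, gave different answers on its 3 probe sets. The brightest stood at 10.36, 10.27 and 10.39 in shGFP and at 10.60, 10.48 and 10.46 in shFoxk1, a difference of 0.17 (SE 0.06, adjusted p = 0.158), and the dimmest (mean 5.96) differed by 0.17 as well. The one between them read 9.01, 9.11 and 9.12 in shGFP, 8.69, 8.35 and 8.91 in shFoxk1, and 8.44, 8.46 and 8.39 in rescue. It lay lower on all arrays with the hairpin, by -0.43 in shFoxk1 (adjusted p = 0.0785 over all probe sets) and by -0.65 in rescue against shGFP, where it was called (adjusted p = 0.0101). It was 1 of 45 dimmer probe sets of the mitotic genes and the only one called in any comparison, where 3.51% of all probe sets were called in rescue against shGFP. Which parts of the transcript these probe sets cover was not looked up here.

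Kinesins and spindle factors held both the genes nearest to a call and some that hardly differed. Kif2c (MCAK), which shortens microtubules at their ends, stood at 10.88, 10.82 and 10.79 in shGFP, 11.00, 11.00 and 11.01 in shFoxk1, and 10.95, 10.91 and 11.00 in rescue. The groups did not overlap in any comparison, and shFoxk1 was the highest and shGFP the lowest. The difference of shFoxk1 from shGFP was 0.17 (SE 0.05, adjusted p = 0.0692), the smallest adjusted p of the 35 in this comparison. The probe set can match other transcripts by its name, and the dimmer Kif2c probe sets differed by 0.091, 0.062 and -0.065. By their names, the brightest probe sets of Aurkb, Bub1b, Bub3, Cdc20, Cdc25c, Cdca8 and Prc1 can do so too, 8 of the 35 with Kif2c.

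Kif20a (MKLP2), which brings the passenger complex to the central spindle, stood at 11.49, 11.44 and 11.45 in shGFP, 11.62, 11.69 and 11.61 in shFoxk1, and 11.62, 11.49 and 11.55 in rescue. The shFoxk1 arrays were above all controls, by 0.18 (SE 0.05, adjusted p = 0.0851), and rescue replicate 2 lay within the control range. Kif23 (MKLP1), the kinesin of centralspindlin, stood at 10.78, 10.79 and 10.79 in shGFP, 10.77, 10.73 and 10.74 in shFoxk1, and 10.72, 10.59 and 10.69 in rescue. Each group lay below the one before it without overlap, with changes of -0.04 in shFoxk1 and -0.12 in rescue against shGFP (SE 0.05, adjusted p = 0.205).

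Nusap1, a bundler of spindle microtubules, stood at 9.71, 9.80 and 9.71 in shGFP, 9.92, 9.81 and 9.80 in shFoxk1, and 9.97, 9.83 and 9.92 in rescue. Rescue lay above shGFP on all arrays, by 0.17 (SE 0.06, adjusted p = 0.134), and this was called with only the brighter genes tested (adjusted p = 0.0492, 15.6% of the genes tested called). Prc1, which crosslinks the central spindle, differed by -0.10 in shFoxk1, where its arrays spread from 11.15 to 11.36. Kif11, the motor that separates the spindle poles, and Racgap1, the partner of KIF23, differed by 0.014 and -0.0084.

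Of the genes of mitotic chromosomes, Mki67 (Ki-67), the proliferation marker, stood at 12.20, 12.08 and 12.12 in shGFP, 12.26, 12.28 and 12.20 in shFoxk1, and 12.26, 12.08 and 12.08 in rescue. The shFoxk1 arrays lay above the controls, by 0.11 (SE 0.06, adjusted p = 0.385), the closest pair of arrays being 12.20 in either group. Rescue was 0.0085 from shGFP and -0.11 from shFoxk1 (adjusted p = 0.468), with 1 rescue array as high as those of shFoxk1. Top2a, which untangles sister DNA, was at 12.78 to 12.89 on all arrays and differed by 0.046 in shFoxk1.

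**Figure D3:**
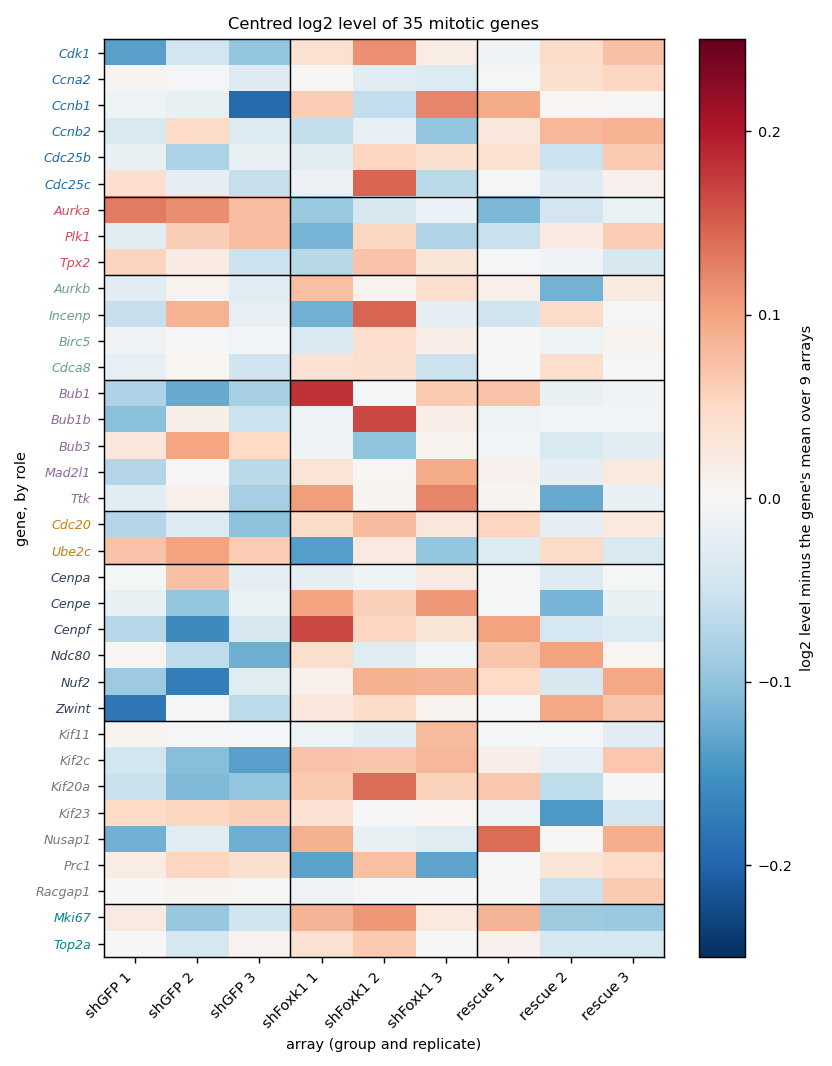
Log2 level of each of the 35 genes minus its mean over the 9 arrays, with genes grouped by role and arrays by group. Colours are scaled to ±0.25, and shFoxk1 replicate 2 holds the highest value of a gene most often, in 11 of the 35.

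Across the arrays, the 35 genes moved little as a set. The mean of their centred levels was -0.024, -0.013 and -0.038 on the shGFP arrays, 0.012, 0.038 and 0.014 on the shFoxk1 arrays, and 0.015, -0.017 and 0.013 on the rescue arrays. The control arrays were lower than the shFoxk1 arrays, and rescue replicate 2 lay among the controls. On shFoxk1 replicate 2, 11 of the 35 genes had their highest level of the 9 arrays, while the lowest level of 6 genes each fell on shGFP replicate 2, shFoxk1 replicate 1 and rescue replicate 2. Within groups the SD of a gene over 3 arrays was between 0.0036 and 0.13.

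Adding Foxk1 back was compared with the hairpin alone. Of the 35 genes 0 were called in rescue against shFoxk1, where 0.953% of all genes were, and 3 had an unadjusted p under 0.05 (Cenpe and Ttk lower, Ccnb2 higher), where 13.8% of all genes did, 7.95% higher and 5.85% lower. The changes lay between -0.14 and 0.13 with a median of -0.019 (0.012 for all genes), 11 means higher (55.3% of all genes) and 24 lower. Among genes at or above the median level the median was -0.0027, with 48.9% of means higher and 18.4% at an unadjusted p under 0.05. Intervals of the 35 reached from -0.25 to 0.23, or 1.19-fold. Groups did not overlap for 4 genes, Ccnb2 higher and Cenpe, Kif23 and Kif2c lower, against 15.6% of all genes, 8.46% higher and 7.17% lower, and 22.1% of the genes at or above the median level. In the authors' deposited table for this comparison the smallest adjusted p among the 35 is 0.335. The counts of 0 were the same in all 18 alternative settings.

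In rescue against shGFP 0 of the 35 were called, where 5.04% of all genes were, and the lowest adjusted p was that of Aurka. At an unadjusted p under 0.05 there were 6 genes higher (Nusap1, Cdk1, Kif2c, Zwint, Nuf2 and Ndc80) and 2 lower (Aurka and Kif23), where 18% of all genes passed, 9.84% higher and 8.13% lower. Of the means 21 were higher, against 57% of all genes. The median was 0.0085 (0.018 for all genes), which turned to -0.038 with each array centred on its median and was 0.031, 0.036 and 0.013 without shGFP replicate 1, 2 or 3 and 0.020, 0.034 and 0.029 without rescue replicate 1, 2 or 3. Groups did not overlap for 11 genes, 7 higher and 4 lower, against 22.3% of all genes, 12% higher and 10.3% lower. Among genes at or above the median level, 35.6% did not overlap and 26.9% had an unadjusted p under 0.05 in this comparison. With only the brighter genes tested 2 were called, Aurka and Nusap1 (15.6% of the genes tested), and with a variance trend and robust estimates 2, Aurka and Cdk1 (7.93% of all genes). This comparison shares its shGFP and rescue arrays with the others and adds no separate evidence.

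Other genes of mitosis were read from 6 lists. Among 20 genes of condensin, cohesin and separase, 4 rose in shFoxk1 against shGFP, 0 fell and 16 did not pass, with a median change of 0.13 and 4.24% of all genes called. Esco2, a cohesin acetyltransferase, rose by 0.41 (SE 0.07, adjusted p = 0.00802) and Cdca5 (sororin), which keeps cohesin on chromosomes, by 0.32 (SE 0.04, adjusted p = 0.00211), both called in all 18 alternatives. The condensin subunits Ncapd2 (0.21, adjusted p = 0.0412) and Ncapd3 (0.32, adjusted p = 0.0442) were called in 5 and 8 of them. Ncapd2 lost its call without any 1 of the shGFP or shFoxk1 arrays (adjusted p = 0.0647 to 0.143) and without rescue replicate 1 or 3 (0.0527 and 0.0519), and Ncapd3 without any 1 of the shGFP arrays, shFoxk1 replicate 1 or 3, or rescue replicate 3 (0.0622 to 0.157). Ncapd3 was 0.15 without _x_at and _s_at probe sets (adjusted p = 0.307) and 0.21 with its probe sets averaged (adjusted p = 0.0541).

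Of all genes 1.97% rose and 4.24% were called either way in shFoxk1. Of 26 other kinesins and spindle factors 1 rose, Ckap2, a spindle protein (0.27, SE 0.04, adjusted p = 0.00462, called in all 18 alternatives), and 25 did not pass. Of 36 other kinetochore and checkpoint genes 1 rose, Cenpk, a subunit of the inner kinetochore (0.27, SE 0.05, adjusted p = 0.0108). It lost the call without shGFP replicate 3 (0.0524) or shFoxk1 replicate 1 (0.0568). Of 17 other mitotic kinases, phosphatases and regulators 0 were called, the smallest p being that of Bora, a helper of Aurora A (0.14, adjusted p = 0.138). Of 17 genes of the anaphase-promoting complex 0 were called, with the subunit Anapc7 nearest (0.18, adjusted p = 0.0900).

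Among 23 genes of the transcriptional control of mitosis 3 rose in shFoxk1, 0 fell and 20 did not pass, with a median of -0.017, where 1.97% of all genes rose. Tfdp2, a partner of the E2F factors, rose by 0.41 (SE 0.05, adjusted p = 0.00156, called in all 18 alternatives). E2f7, an E2F that represses, rose by 0.24 (SE 0.05, adjusted p = 0.0269) and was called in 12 of 18 alternatives. It lost the call without any 1 of the shGFP arrays or without shFoxk1 replicate 1 or 3 (adjusted p = 0.0667 to 0.118). With each array centred on its median it also lost the call (0.0693). Rbl2 (p130), the pocket protein of DREAM, rose by 0.26 (SE 0.06, adjusted p = 0.0339) and lost it without any 1 of the shGFP arrays, shFoxk1 replicate 1 or 2, or rescue replicate 3 (0.0538 to 0.137). It was called in 8 of 18 alternatives and came to 0.13 when its probe sets were averaged (adjusted p = 0.142). Foxm1, the forkhead factor of mitotic genes, stood at 8.04, 8.02 and 8.16 in shGFP, 7.98, 7.99 and 7.97 in shFoxk1, and 8.05, 8.10 and 8.02 in rescue. Its shFoxk1 arrays lay below both other groups, by a change of -0.094 from shGFP (adjusted p = 0.386).

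Against shFoxk1, rescue had 0 genes called in each of the 6 lists, where 0.953% of all genes were. The smallest p in each list belonged to Bora (-0.20, adjusted p = 0.104), Ckap2 (-0.15, adjusted p = 0.180), Cenpp (0.16, adjusted p = 0.261), Pds5a (-0.23, adjusted p = 0.165), Anapc11 (0.32, adjusted p = 0.214) and Tfdp1 (-0.17, adjusted p = 0.137). Against shGFP, rescue had 3 condensin and cohesin genes higher, 1 kinetochore gene and 1 transcription gene higher, and 1 kinase regulator and 1 spindle gene lower, where 5.04% of all genes were called. Cdca5 was 0.27 higher (SE 0.04, adjusted p = 0.00566, called in all 18 alternatives) and Cenpk 0.26 higher (adjusted p = 0.0113, or 0.0519 without shGFP replicate 3). Ckap2l, a spindle protein, changed by -0.31 (SE 0.06, adjusted p = 0.00953), or by -0.13 as the mean of its probe sets (adjusted p = 0.140).

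Cdc25a, a phosphatase that activates CDKs, changed by -0.26 in rescue against shGFP (SE 0.05, adjusted p = 0.0198) and lost the call without any 1 of the shGFP arrays or rescue replicate 3 (0.0635 to 0.0843). Ncapd2 (0.23, adjusted p = 0.0271), Smc1a, a cohesin subunit (0.20, adjusted p = 0.0403), and Tfdp2 (0.21, adjusted p = 0.0458) were called in 11, 9 and 7 of 18 alternatives. The 9 of Smc1a include 1 call in the opposite direction, as the mean of its probe sets. Ncapd2 lost the call without any 1 of the shGFP arrays or rescue replicate 1 or 3 (0.0518 to 0.109), and came to 0.097 with its probe sets averaged (adjusted p = 0.392). Smc1a lost it without any 1 of the shGFP arrays, shFoxk1 replicate 1 or rescue replicate 2 or 3 (0.0676 to 0.147), and Tfdp2 without any 1 of the arrays other than shFoxk1 replicate 1 (0.0528 to 0.155). Smc1a turned to -0.29 as the mean of its probe sets (adjusted p = 0.0133). In the anaphase-promoting complex Anapc16 had the smallest p (-0.18, adjusted p = 0.0777).

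**Figure D4:**
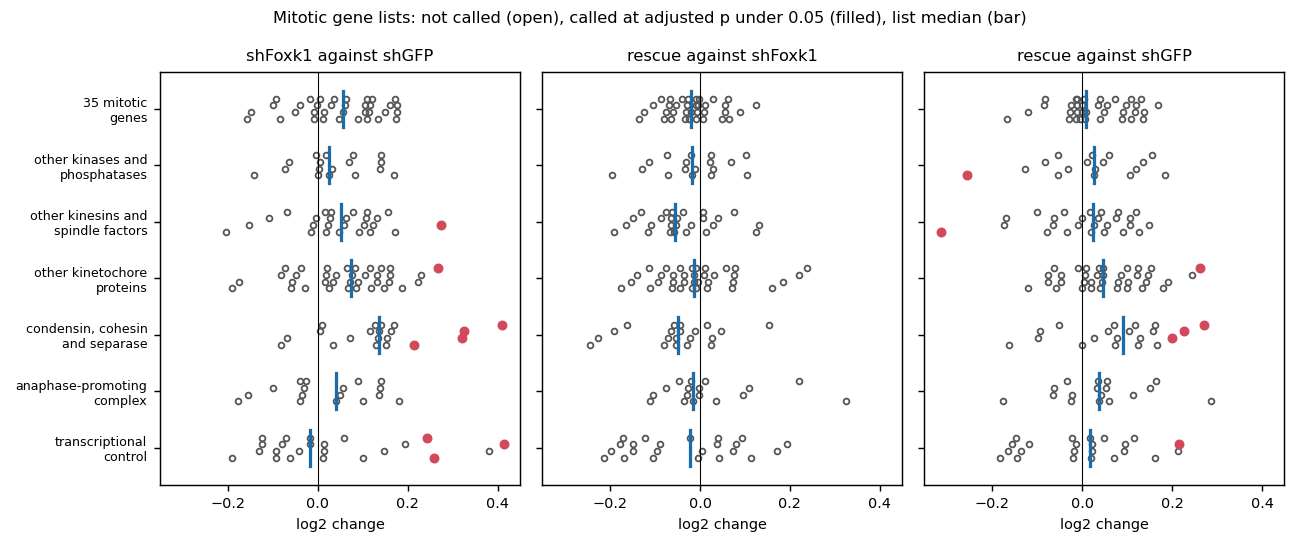
Change of every gene of the 35 and of the 6 other lists in the 3 comparisons on the log2 scale, with points for genes, lines for list medians and filled points for genes called at an adjusted p under 0.05. The 35 genes hold no filled point, and condensin, cohesin and separase hold 4 in shFoxk1 against shGFP.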

How the data were processed

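RNA of 9 MEF samples (3 groups of 3) was measured on Affymetrix arrays. The deposited values are log2 levels of 45101 probe sets, made by the authors with RMA (background correction, quantile normalization between arrays and a summary per probe set). The submitters' processing notes name RMA and affy without versions. Their deposited tables of 2 comparisons hold log2 changes, p-values and scores (the moderated statistic and log odds, per the file headers). The number of arrays limits the precision.

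After 64 control probe sets were left out, the probe set with the highest mean over the arrays stood for each of 20672 genes, with 1035 symbols renewed through RefSeq. Group means were fitted over all 9 arrays in limma 3.58.1 (R 4.3.3), with 3 comparisons, with Benjamini-Hochberg adjustment over all genes, a gene being called at an adjusted p under 0.05. The fit was tested on simulated data. Changes and SEs are on the log2 scale, and intervals are 95%. Nothing in the labels says that replicates came from separate cultures, so p-values measure only how these arrays scatter, possibly for technical reasons. Mitotic genes, lists and tests were chosen with earlier results of these data known. Levels on every array were given for genes called in any comparison, the 6 with the smallest p in each and the 2 most negative in shFoxk1, and for some others chosen after their values were seen (Cdc20, Cenpf and Foxm1). In the other lists, up to 4 called genes with the smallest adjusted p, or the 1 with the smallest p, were named. Deviations of same-numbered rescue and shFoxk1 arrays from their group means correlated at 0.23, 0.14 and 0.13. This is a hint of pairing from the data and not from the labels, and the main fit used no pairing.

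Alternatives were 9 fits without 1 array and 9 others: the replicate block, only the 6 arrays compared, all probe sets, mean of a gene's probe sets, no _x_at or _s_at probe sets, a filter at the median gene level, variance trend with robust estimates, array weights, and centring. Alternatives for genes of the other lists were added after seeing the data.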

Additional observations from a re-analysis of the deposited data

How the results depend on the processing

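The 35 mitotic genes, each by its brightest probe set, had 0 calls in all 3 comparisons without any 1 array and with the replicate block. They also had 0 with the 6 arrays compared alone, with adjustment over all probe sets and as the mean of probe sets. Without _x_at and _s_at probe sets 34 of the 35 were tested, again with 0 calls, since Aurkb has no other probe set. That setting left out the brightest probe set of 8 of the 35, and a dimmer one stood in for all of these but Aurkb. The filter on low values gave 5, 0 and 2 calls for knockdown over control, then rescue over knockdown, then rescue over control, variance trend with robust estimates 7, 0 and 2, array weights 5, 0 and 0, and centring 0, 0 and 1. In the same order, genes called among all genes ranged over 460 to 943, 74 to 219 and 567 to 1026 without 1 array, and were 1501, 382 and 1614 with the filter, 1530, 481 and 1640 with the trend. Array weights gave 1541 and 359 for both comparisons with shFoxk1, all probe sets 1583 for rescue over control, and the 6 arrays alone 77 for rescue over knockdown. The median change of the 35 ranged over 0.043 to 0.063, -0.032 to -0.010 and 0.0085 to 0.036 without 1 array. As the mean of probe sets it was 0.038 and 0.023 in the comparisons with control, and array weights gave -0.0036 and 0.025 in those with rescue. Centring gave 0.033, -0.042 and -0.038, which turns the sign for rescue over control. The replicate block gave 1074, 244 and 1223 calls among all genes, medians of the 35 as before (0.057, -0.019 and 0.0085), and no call of a mitotic gene, while Ncapd2 lost its call in shFoxk1 against shGFP (adjusted p = 0.0539). Same-numbered arrays of the other 2 pairs of groups correlated at 0.071 to 0.15 and 0.060 to 0.19. Each rescue array correlated best with its own number in shFoxk1 and in shGFP, and each shFoxk1 array with its own number in shGFP. The reverse search was not made, and this is a hint from the data and not from the design. Smc1a turned to -0.29 in rescue against shGFP as the mean of its probe sets (adjusted p = 0.0133). The cause was not tested for any of these. Ccnb1 lies under the median level and was not tested with the filter, which left 34 of the 35. Of 45 dimmer probe sets of the 35 genes, 1 was called (Cenpf, -0.65 in rescue against shGFP), and 33, 25 and 30 had the sign of the brightest in the 3 comparisons.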
